A study of Mus musculus with 29 samples.

Results

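The integrin genes described here are Itga1, Itga5, Itga7, Itga8, Itga9, Itga11, Itgav, Itgb1, Itgb5 and Itgbl1, followed in mouse hearts through heart failure (HF) and the recovery after it. They were chosen by symbol as integrin genes of heart muscle and fibroblasts, and all 10 were found among the 29955 genes of the table. Of these genes, 12759 had a mean of at least 0.5 FPKM (mapped fragments, scaled to the length of the transcript and the size of the library) and were tested. The tested genes included 9 of the 10, and Itga8, with a mean of 0.431 FPKM, was not among them.

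Integrins are receptors of the cell surface, each built of an alpha and a beta subunit, that bind the extracellular matrix outside the cell and the actin cytoskeleton inside it. In the heart they hold cardiomyocytes to the basement membrane, pass mechanical load across the membrane and let fibroblasts grip and remodel collagen and fibronectin. Some of them, above all those with the Itgav subunit, also release TGF-beta from its latent form in the matrix. Itgbl1 differs from the other members, since it encodes a protein with the cysteine-rich repeats of a beta subunit and is not known to form a receptor with an alpha subunit.

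The hearts came from male C57BL6 mice that entered the protocol at 3 months of age. HF was induced over 5 weeks with drinking water that held L-NAME, which blocks nitric oxide synthase, at 0.3 mg/ml and NaCl at 1%, and, starting a week later, a 28-day osmotic pump that gave 0.7 mg/kg/day of angiotensin II. HF week 3 (2 libraries) was taken during induction and HF week 5 (3 libraries) at its end, and Recovery weeks 7 (2), 9 (2), 11 (3), 13 (2) and 19 (5) after water without additives was given back and the pump had run out. Control week 19 (5 libraries) was age-matched to Recovery week 19 and served as the control throughout. Control week 5, with 4 labelled samples, is the control of HF week 5 by its labels but was not used. HF week 3, HF week 5 and Recovery weeks 7 to 13 therefore differ from Control week 19 in age as well as in treatment. With the groups used, the effects of both cannot be told apart. The labels give the tissue as whole heart or whole ventricle, whereas the methods name the frozen apical portion. The labels do not tie the libraries to single mice, so that p-values measure the spread between libraries.

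Some libraries stood apart in ways that touch the results below. Markers of atrial muscle (Myl7, Myl4, Sln, Bmp10 and Nppa) summed to 89.6 to 349 FPKM in the controls and to 173 to 752 FPKM in Recovery week 19, but to 81735 FPKM in HF week 5 library 1, 2515 and 2229 FPKM in libraries 2 and 3, and 7737 and 14050.1 FPKM in HF week 3. Myl7, the atrial myosin light chain, was at 18388, 152 and 6.16 FPKM in HF week 5 and at most 1.12 FPKM in the controls, whereas Nppa was listed at 0 in both HF week 3 libraries. Mesothelial markers (Msln, Upk3b, Upk1b, Wt1 and Krt19) summed to 83.1, 31.3 and 11.4 FPKM in HF week 5, 72.9 and 231 FPKM in HF week 3 and at most 3.28 FPKM in the controls. Adipocyte markers summed to 227, 209 and 1.37 FPKM in HF week 5 and at most 0.310 FPKM in the controls. The 8 fibroblast markers, all of them detected, summed to 816 to 1061 FPKM in the controls, 1201 to 2452 FPKM in HF week 5 and 1066 to 1763 FPKM in Recovery week 19, and library 1 was the highest of HF week 5. Of the 10 cardiomyocyte markers, Myh6 was listed at 0 throughout weeks 5 and 19, although ventricular muscle should hold it, and so was Myl2 in Control week 19. Myh6 was above 0 in all other libraries. The 10 highest genes of each library together held 14.6 to 18.8% of its FPKM in weeks 5 and 19 against 19.8 to 37.5% in the others. In HF week 3 library 1, 12816 genes had a value above 0, fewer than in any other library (16339 to 18091). The relative depth of the other 23 libraries ranged from 0.735 to 1.41, and the absolute depth is unknown.

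**Figure D1:**
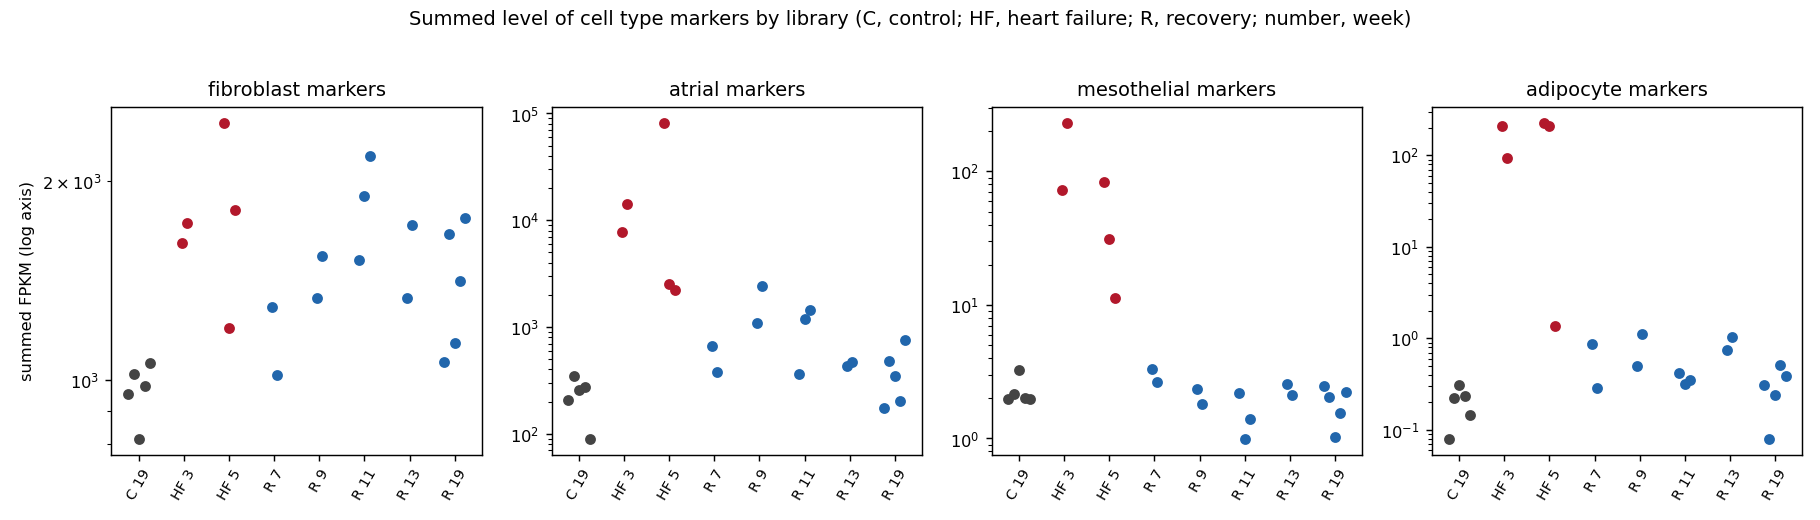
Summed FPKM of fibroblast, atrial, mesothelial and adipocyte markers in each library, on log axes, by group (C, control; HF, heart failure; R, recovery; the number is the study week). The HF libraries lie above the controls on all 4 lists, and HF week 5 library 1 has the highest atrial sum of all, 81735 FPKM.

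The level of each integrin transcript in control hearts was asked first. FPKM is scaled to transcript length, so that levels can be set side by side between genes. Itgb1, the beta subunit that pairs with most of the alpha subunits measured here, led with 110.7 ± 15.6 FPKM (SD, n = 5). It was followed by Itga7, the alpha subunit of the laminin receptor of striated muscle, with 66.6 ± 6.25 FPKM, and by Itgb5, a partner of Itgav in vitronectin binding, with 33.7 ± 1.46 FPKM. Itga5, of the fibronectin receptor, stood at 11.8 ± 2.46 FPKM and Itga9, which binds tenascin C and osteopontin, at 6.22 ± 0.593 FPKM. Each of these 5 was above the next in every control library. Itgbl1 (2.30 ± 0.183 FPKM), Itgav (2.05 ± 0.341 FPKM) and the collagen receptor subunit Itga1 (1.44 ± 0.291 FPKM) came next, and the libraries of each overlapped with those of its neighbour. Itga11, a collagen receptor subunit of fibroblasts, was at 0.660 ± 0.167 FPKM and Itga8, which binds nephronectin and fibronectin, at 0.414 ± 0.119 FPKM, again with overlap between them.

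Over all 24 libraries the members differed in how far they moved. Itgb5 and Itgb1 varied least, with a highest library 1.85 and 1.89 times the lowest, and Itga7, Itga9, Itga5 and Itgav ranged over 2.23, 2.31, 3.25 and 3.30 times. Itga8, Itga1 and Itga11 ranged over 3.74, 4.01 and 4.29 times, at levels where small differences in FPKM weigh more. Itgbl1 had the widest range of the 10, 7.55 times from 1.63 FPKM in Recovery week 7 to 12.3 FPKM in HF week 3. The highest group mean was that of HF week 3 for 7 members, of HF week 5 for Itgb1 and Itga8, and of Recovery week 11 for Itga11.

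**Figure D2:**
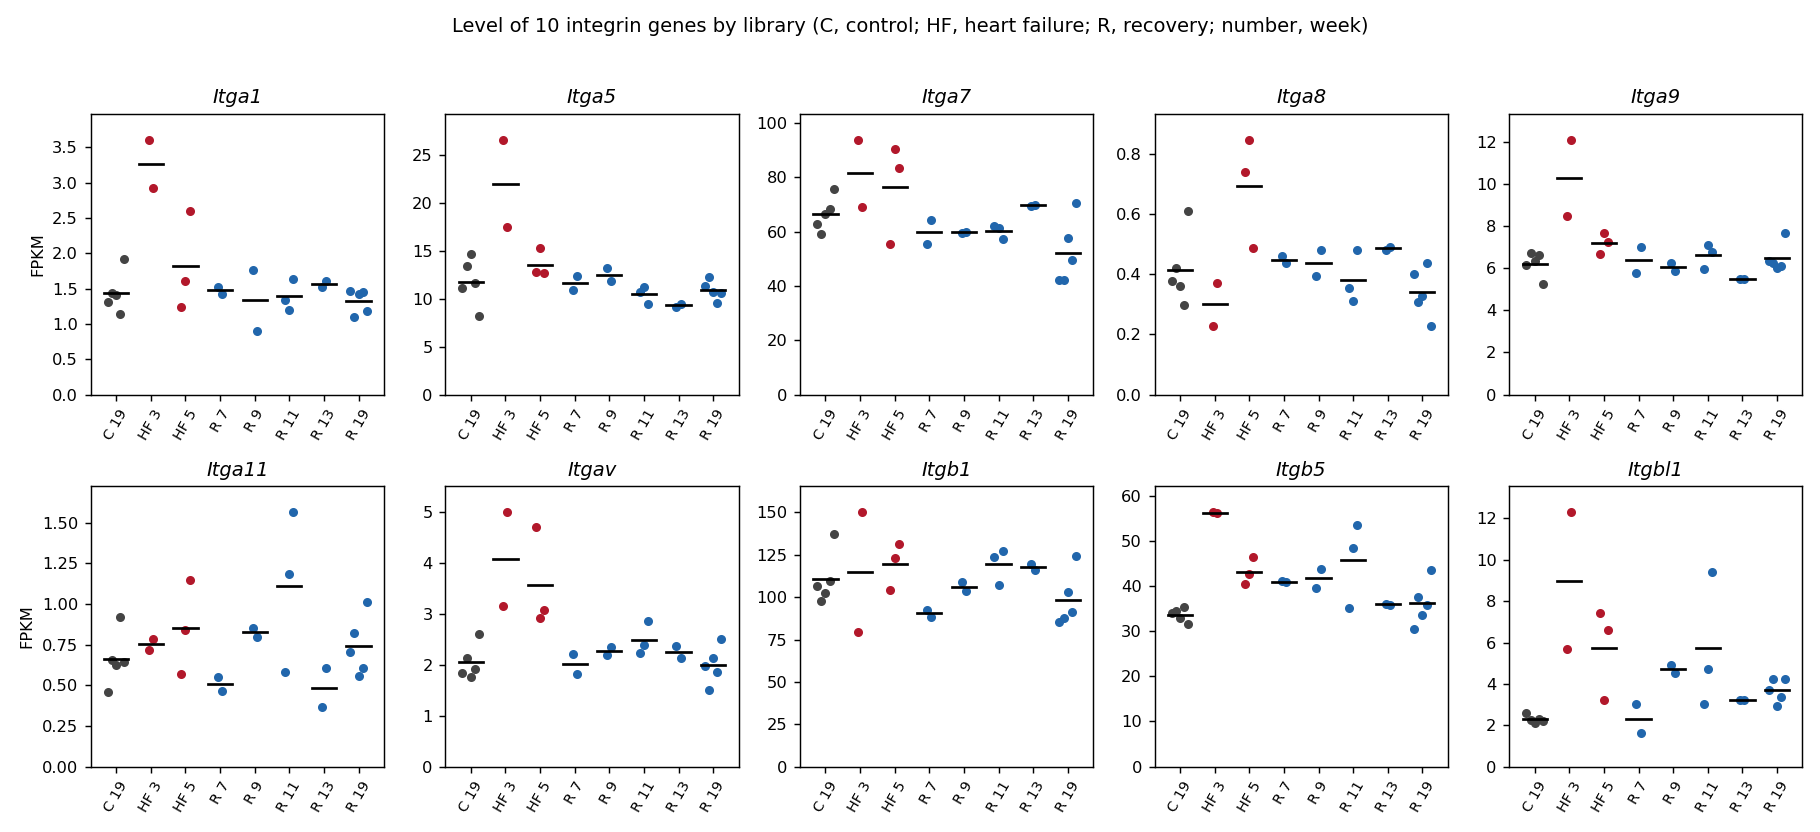
FPKM of the 10 integrin genes in each of 24 libraries by group; points are libraries, lines are group means, and every axis starts at 0. Itgav, Itgb5 and Itgbl1 lie above the control libraries in all HF libraries, whereas Itgb1 and Itga7 overlap with control in HF week 5.

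The make-up of the alpha subunits was then compared. Itga7 made up 74.6 ± 3.47% of the summed FPKM of the 7 alpha members in control (n = 5), 72.9 ± 4.59% in HF week 5 (n = 3) and 70.1 ± 4.55% in Recovery week 19 (n = 5). The share was 67.6% in library 1 of HF week 5 and 75.6 and 75.4% in libraries 2 and 3, and without library 1 the difference from control turned from -1.70 to 0.946 percentage points. The step to Recovery week 19, of -2.80 percentage points, was -5.45 without that library and -1.42 without library 2. Neither step exceeded the scatter between libraries, with a two-sided exact permutation p of 0.679 for HF week 5 against control and of 0.393 for Recovery week 19 against HF week 5. Itga5 contributed 13.3 ± 3.01%, 13.2 ± 2.07% and 15.1 ± 3.22% in the same groups, and Itga9 7.01 ± 0.926%, 7.02 ± 0.941% and 8.84 ± 0.976%. Itgav, low as it is, held 2.30 ± 0.338% in control and 3.65 ± 1.81% in HF week 5, where library 1 was at 5.73% and libraries 2 and 3, at 2.44 and 2.79%, were near the highest control library (2.74%). Of the FPKM of Itgb1 and Itgb5 together, Itgb5 held 23.6 ± 2.83% in control, 26.6 ± 1.15% in HF week 5 and 27.0 ± 2.12% in Recovery week 19. The difference between control and HF week 5 was 3.06 percentage points (1.84 without Control week 19 library 5) with an exact permutation p of 0.0714, and the step from there to Recovery week 19 had one of 0.714. The smallest p that the 56 splits of 3 against 5 libraries allow is 0.0357.

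**Figure D3:**
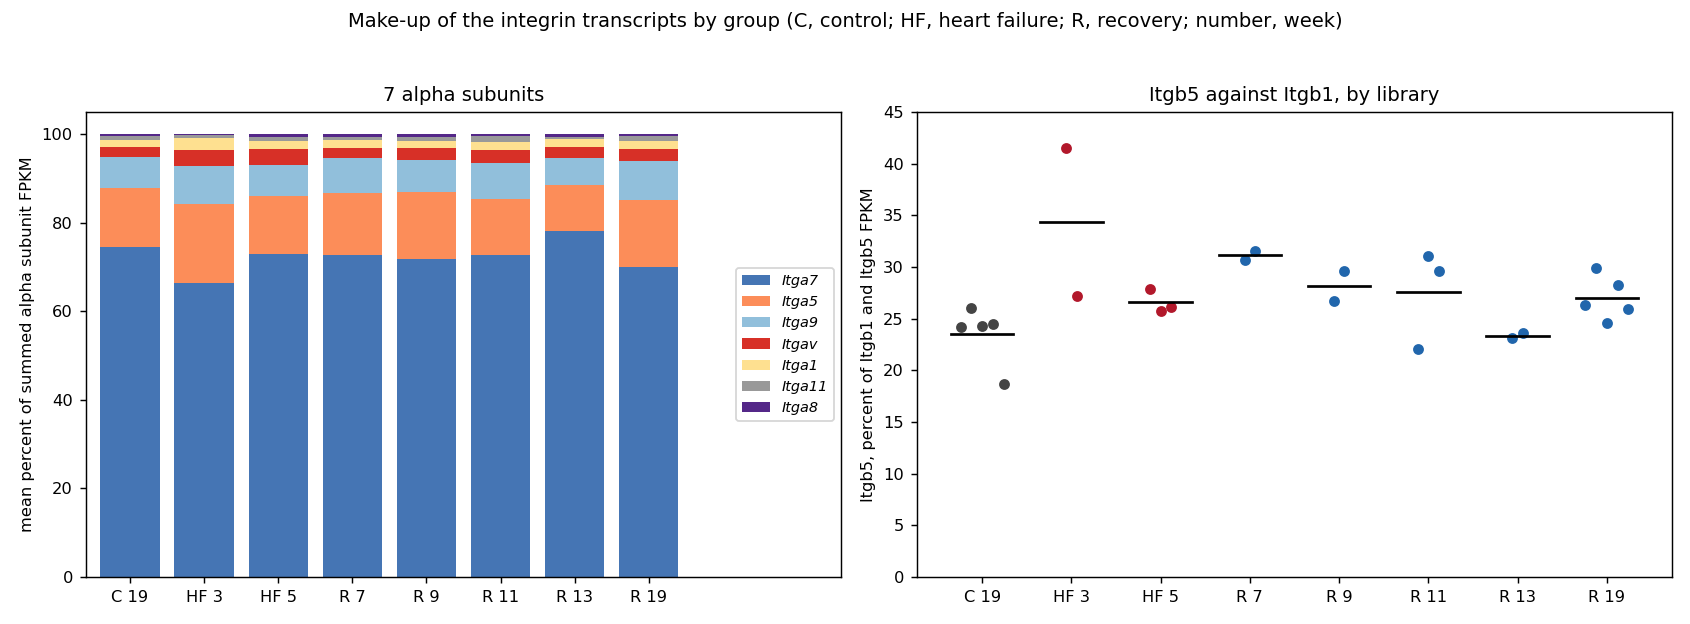
Left, mean percent of the summed FPKM of 7 alpha subunits by group; right, Itgb5 as percent of Itgb1 and Itgb5 FPKM in each library, with group means as lines. Itga7 holds 66.4 to 78.1% of the alpha sum in every group, and Itgb5 holds 23.6% in control and 26.6% in HF week 5.

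HF week 5 against Control week 19 asks which integrin transcripts differ at the end of induction. Itgav, Itgb5 and Itgbl1 were higher in HF, and none of the 9 tested members was lower. The call of 3 of 9 was made with limma on log2(FPKM + 0.5) at a Benjamini-Hochberg adjusted p under 0.05, and has to be read against 11.6% of all tested genes called higher (24% in either direction). The estimates of all 9 were above 0 (that of Itga1 was -0.01 without HF week 5 library 3), with a median log2 fold change of 0.22 against 0.04 over all genes tested. These are bulk hearts, in which more cells of a type and more RNA per cell cannot be told apart.

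Itgav, the alpha subunit that binds vitronectin and latent TGF-beta, measured 4.71, 2.92 and 3.09 FPKM in HF week 5 and 1.83, 2.14, 1.75, 1.93 and 2.60 FPKM in control. Every HF library was above every control library, with library 1 far the highest. The means were 3.57 ± 0.992 FPKM (n = 3) and 2.05 ± 0.341 FPKM (n = 5), a log2 fold change of 0.66 (SE 0.167, limma adjusted p = 0.00808).

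Itgb5 measured 40.4, 42.7 and 46.5 FPKM in HF week 5 and 34.0, 34.4, 33.0, 35.4 and 31.6 FPKM in control. The libraries again did not overlap, and HF week 5 library 1 was the lowest of its group. The log2 fold change was 0.35 (SE 0.121, limma adjusted p = 0.0393), from 33.7 ± 1.46 to 43.2 ± 3.10 FPKM. With each library centred on its median it was 0.29 (adjusted p = 0.115), and the call also failed when any 1 of the 8 libraries was left out, with adjusted p-values over all alternatives of 0.00963 to 0.176.

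Itgbl1 measured 7.41, 3.24 and 6.63 FPKM in HF week 5 and 2.60, 2.27, 2.11, 2.30 and 2.21 FPKM in control. Libraries 1 and 3 were well above control, and library 2 was above it by less than 1 FPKM. The rise from 2.30 ± 0.183 to 5.76 ± 2.22 FPKM was the largest of the members, with a log2 fold change of 1.09 (SE 0.286, limma adjusted p = 0.00991). Groups without overlap were found in the higher direction for these 3 members and for 14.8% of all genes tested.

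None of the 3 calls was made without HF week 5 library 1. Without it, the log2 fold changes stayed above 0 at 0.47 for Itgav, 0.40 for Itgb5 and 0.89 for Itgbl1, but limma's adjusted p rose to 0.0911, 0.0701 and 0.0850 and no member was called. With library 3 alone for HF week 5, the library with the lowest atrial, mesothelial and adipocyte sums of the group, they were 0.50, 0.46 and 1.35 (adjusted p = 0.252, 0.176 and 0.0709), where the lone library is assumed to vary like the other groups. Over all alternatives the adjusted p ranged from 0.00299 to 0.252 for Itgav and from 0.00249 to 0.0850 for Itgbl1. Beside these changes, 5 of 8 fibroblast, 4 of 8 endothelial, 3 of 5 smooth muscle, 4 of 5 mesothelial, 4 of 4 tested atrial and 2 of 2 tested adipocyte markers were higher in HF week 5, and none of these lists had a marker called lower. Of the 10 cardiomyocyte markers 1 was higher and 2 were lower, and of the 5 pericyte markers 2 were higher and 1 was lower. Myh6 was listed at 0 in both groups and Myl2 in every control library, so that neither compares their muscle content. The part of all these markers in the integrin values was not tested.

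The remaining members did not pass the test. Itga7 measured 55.6, 90.5 and 83.5 FPKM in HF week 5 and 59.2 to 75.8 FPKM in control, a log2 fold change of 0.17 with a 95% confidence interval of -0.17 to 0.52. Itgb1 measured 104, 123 and 131 FPKM against 97.6 to 137 FPKM (0.11, interval -0.23 to 0.46). Both of these subunits therefore overlapped with control, with library 1 the lowest of the HF group for each. Itga5 (0.22, interval -0.11 to 0.54) and Itga9 (0.20, interval -0.05 to 0.44) had narrower spreads, and the collagen receptor subunits Itga1 (0.22, interval -0.16 to 0.60) and Itga11 (0.21, interval -0.20 to 0.62) wider ones. Their intervals still hold rises of the size measured for Itgb5. Single libraries moved several of these values, that of Itga7 to 0.39 without HF week 5 library 1 and 0.04 without library 2, that of Itgb1 to 0.21 and 0.04 without libraries 1 and 3, and that of Itga11 to 0.37 and 0.06 without libraries 1 and 3. Itga8 was at 0.741, 0.848 and 0.489 FPKM in HF week 5 and at 0.297 to 0.611 FPKM in control, so that the groups overlapped. When genes below the minimum were kept in the fit, its log2 fold change was 0.38 (limma adjusted p = 0.0405), but with these 2 groups alone in that fit the adjusted p was 0.127.

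**Figure D4:**
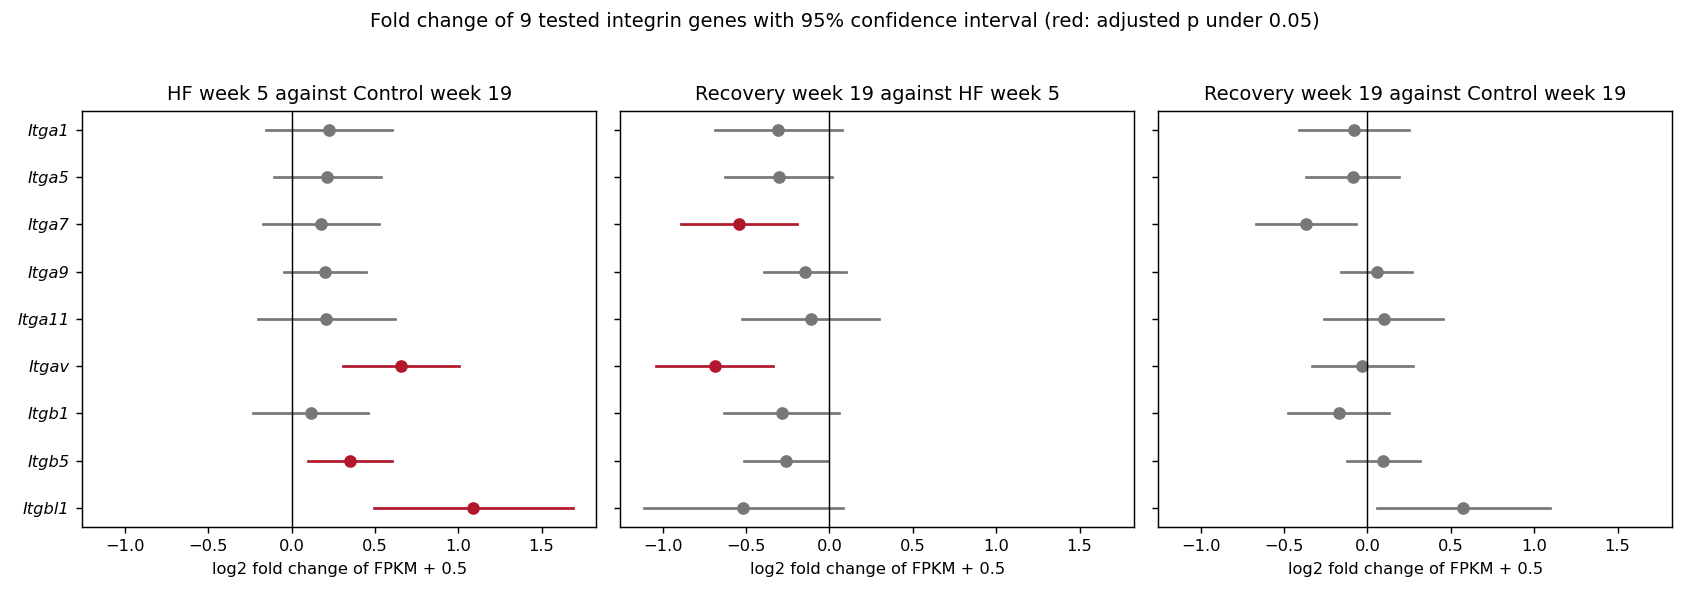
Log2 fold change of FPKM + 0.5 with its 95% confidence interval for the 9 tested members in 3 comparisons; red marks an adjusted p under 0.05. Itgav, Itgb5 and Itgbl1 are higher in HF week 5, Itgav and Itga7 are lower in Recovery week 19 than in HF week 5, and no member is called in Recovery week 19 against control.

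The promoters of the 3 members called in HF week 5 are shown because these genes were higher together. They are RefSeq sequences of GRCm38.p6, a later build than the one the reads were aligned to, of 300 bases from 250 before to 50 after the start of the gene, read 5′ to 3′ along the plus strand: Itgav at chr2:83724147-83724446, Itgb5 at chr16:33829415-33829714 and Itgbl1 at chr14:123659890-123660189. Capitals mark the letters GGGCGG of the Sp motif on either strand.
Itgav: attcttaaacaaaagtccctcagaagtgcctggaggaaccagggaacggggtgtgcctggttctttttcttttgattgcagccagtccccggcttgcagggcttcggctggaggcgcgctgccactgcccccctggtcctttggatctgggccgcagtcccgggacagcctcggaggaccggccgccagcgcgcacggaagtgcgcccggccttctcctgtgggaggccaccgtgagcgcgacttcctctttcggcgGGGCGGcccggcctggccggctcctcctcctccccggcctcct
Itgb5: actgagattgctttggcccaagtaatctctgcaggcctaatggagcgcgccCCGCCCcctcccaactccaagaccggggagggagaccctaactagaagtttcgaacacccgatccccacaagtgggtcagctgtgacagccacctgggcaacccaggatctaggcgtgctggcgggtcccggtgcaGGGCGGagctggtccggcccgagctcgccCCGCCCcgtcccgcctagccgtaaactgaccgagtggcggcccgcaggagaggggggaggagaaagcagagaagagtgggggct
Itgbl1: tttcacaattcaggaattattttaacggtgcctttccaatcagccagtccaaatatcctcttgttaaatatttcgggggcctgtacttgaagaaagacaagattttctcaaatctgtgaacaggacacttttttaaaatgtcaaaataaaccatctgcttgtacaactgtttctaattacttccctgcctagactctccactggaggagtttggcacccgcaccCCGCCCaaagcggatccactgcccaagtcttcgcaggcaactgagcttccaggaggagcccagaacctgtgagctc
The Sp letters stand 3 times before the start of Itgb5, at 199, 63 and 34 bases, 26 bases before that of Itgbl1 and 7 bases after that of Itgav. They are in 35.7% of the 32841 promoters of the table. Among the other members with a promoter there, Itga5 has 2 matches and Itgb1 has 1, and Itga1, Itga8, Itga9 and Itga11 have none. The AP-1 letters TGANTCA (7.81% of promoters), the TEAD letters GGAATG (14.7%), the TATA letters TATAAA (13.6%) and the CArG box (1.63%), searched on both strands, are in none of these 3 windows. Itga9 holds an AP-1 match and Itgb1 a TEAD match. The 3 promoters differ in base composition, with 67.3% G and C for Itgav, 65.7% for Itgb5 and 45.3% for Itgbl1, against a median of 52.7% over the table.

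Recovery week 19 against HF week 5 asks how the levels stood 14 weeks after induction ended. Itgav and Itga7 were lower in Recovery week 19, and none of the 9 tested members was higher. These 2 calls stand against 12% of all tested genes called lower and 24.2% in either direction, and all 9 estimates were below 0 (that of Itga11 was 0.04 without HF week 5 library 3), with a median log2 fold change of -0.30 against -0.04 over all genes. Beside these changes, 2 of 8 fibroblast, 3 of 8 endothelial, 4 of 5 smooth muscle, 5 of 5 mesothelial, 4 of 4 tested atrial and 2 of 2 tested adipocyte markers were lower in Recovery week 19. Of the cardiomyocyte markers 2 of 10 were higher and none was lower, and of the 5 pericyte markers 2 were higher and 2 were lower. Myh6 was listed at 0 in both groups. The part of all these markers in the integrin values was not tested.

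Itgav measured 1.98, 1.51, 2.14, 1.86 and 2.51 FPKM in Recovery week 19, below all 3 libraries of HF week 5. It was lower by 0.69 on the log2 scale (log2 fold change -0.69, SE 0.167, limma adjusted p = 0.0060). Without HF week 5 library 1 the difference was -0.50 (adjusted p = 0.0672), within a range of 0.00209 to 0.221 over the alternatives.

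Itga7 measured 42.0, 42.0, 57.6, 49.5 and 70.5 FPKM in Recovery week 19, of which 3 libraries lay below every HF week 5 library and 2 overlapped with library 1 of HF. Its mean was 52.3 ± 12.01 FPKM against 76.5 ± 18.4 FPKM in HF week 5 and 66.6 ± 6.25 FPKM in control. The log2 fold change against HF week 5 was -0.54 (SE 0.167, limma adjusted p = 0.0236). The call was lost without HF week 5 library 2 or 3 (adjusted p = 0.121 and 0.0963), without Recovery week 19 library 1 or 2 (0.0519 and 0.0595), with median centring (0.0605), with only the 2 groups in the fit (0.106) and with library 3 alone for HF week 5 (0.0919), and it was made in 11 of 18 alternatives (0.00482 to 0.121).

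Itgb5, at 30.4, 37.6, 33.6, 35.9 and 43.6 FPKM, and Itgbl1, at 3.71, 4.25, 2.92, 3.35 and 4.23 FPKM, were not called lower. Their log2 fold changes against HF week 5 were -0.26 (interval -0.51 to -0.01, limma adjusted p = 0.125) and -0.52 (interval -1.11 to 0.08, adjusted p = 0.200), and the libraries of both overlapped with HF. Itgb5 was called with quantile normalization (-0.30, adjusted p = 0.0401) and without Recovery week 19 library 5 (-0.33, adjusted p = 0.0446), within a range of 0.0401 to 0.324, and without HF week 5 library 2 Itgbl1 was called (-0.85, adjusted p = 0.0453, range 0.0453 to 0.579). Itga5 was below HF week 5 in all 5 recovery libraries, at 9.52 to 12.3 FPKM against 12.7 to 15.3 FPKM, but its test gave -0.30 with an adjusted p of 0.159. It was, with Itgav, 1 of 2 tested members without overlap in the lower direction, against 12.7% of all genes. Itga8 also did not overlap (0.227 to 0.438 FPKM against 0.489 to 0.848 FPKM), with a log2 fold change of -0.50 and an adjusted p of 0.00973 in the fit without a minimum. Itga1 (-0.31, limma adjusted p = 0.233), Itga9 (-0.15, adjusted p = 0.394), Itga11 (-0.11, adjusted p = 0.712) and Itgb1 (-0.29, adjusted p = 0.221) overlapped with HF week 5 and were not called.

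Recovery week 19 against Control week 19 compares mice of the same age. None of the 9 members was called by limma, against 0.0235% (3 genes) of all genes tested, and at an unadjusted p under 0.05 there were 2 members against 2.88% of all genes. Itgbl1 was the higher of these: its recovery libraries, 2.92 to 4.25 FPKM, all lay above the controls, 2.11 to 2.60 FPKM. The means of 3.69 ± 0.573 and 2.30 ± 0.183 FPKM gave a log2 fold change of 0.57 (interval 0.06 to 1.09), with an unadjusted p of 0.0313 and an adjusted p of 1.0 in the limma fit across all genes. Groups without overlap in that direction were found for 0.925% of all genes. The fibroblast markers were not called in this comparison (0 of 8), with a median log2 fold change of 0.41. Their sum, 1066 to 1763 FPKM, was nevertheless above the highest control library (1061 FPKM) in every library of Recovery week 19, and its part in the Itgbl1 value was not tested. Itga7 was the lower member, with a log2 fold change of -0.37 (interval -0.67 to -0.07), overlapping libraries and, in the limma fit across all genes, an unadjusted p of 0.0194 and an adjusted p of 1.0. The adjusted p for Itgbl1 ranged from 0.257 to 1.0 over the alternatives and that for Itga7 from 0.841 to 1.0. For Itgav the log2 fold change was -0.03 with an interval of -0.33 to 0.27, and for Itgb5 0.09 with an interval of -0.12 to 0.31. Itga1 (-0.08), Itga5 (-0.09), Itga9 (0.05), Itga11 (0.10) and Itgb1 (-0.17) overlapped with control, each with a limma adjusted p of 1.0, as did Itga8 (-0.12 in the fit without a minimum). The comparisons of HF week 5 and of Recovery week 19 share the control libraries, and those of Recovery week 19 with HF week 5 and with control share the recovery libraries.

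HF week 3, during induction, had the most members above control, 6 of 9, none lower, against 23.1% of all genes called higher and 50.7% in either direction. Itgb5 measured 56.5 and 56.2 FPKM, Itgbl1 5.67 and 12.3 FPKM and Itgav 3.16 and 5.01 FPKM, and all were above every control library, as were the 3 members named next (21.4% of all genes did so). The limma log2 fold changes were 0.73 (adjusted p = 0.000282), 1.67 (adjusted p = 0.000401) and 0.82 (adjusted p = 0.00158). Itga1 at 3.60 and 2.92 FPKM, Itga5 at 26.6 and 17.4 FPKM and Itga9 at 8.49 and 12.1 FPKM were above control too. Their log2 fold changes were 0.96, 0.87 and 0.67, with limma adjusted p-values of 0.000929, 0.000539 and 0.000498. These 6 were called in all 15 alternatives, among them the fits without either HF week 3 library, where the lone library is assumed to vary like the other groups. Itgb1 was at 79.5 and 150.4 FPKM in the same 2 libraries, below and above the whole control range, and its log2 fold change was -0.01. The fit without HF week 3 library 1 gave it 0.45 and the fit without library 2 -0.46, with adjusted p-values of 0.0398 to 1.0 over the alternatives. Itga7 (0.28, limma adjusted p = 0.231) and Itga11 (0.12, adjusted p = 0.679) were not called, and Itga8, at 0.230 and 0.370 FPKM, overlapped with control. Beside these values, marker sums of several cell types were above every control library in both HF week 3 libraries. They were 1615 and 1731 FPKM for fibroblast markers, 415 and 524 FPKM for endothelial markers (267 to 336 FPKM in control) and 221 and 236 FPKM for macrophage and leukocyte markers. Platelet markers summed to 194 and 127 FPKM (33.5 to 79.8 FPKM in control) and adipocyte markers to 211 and 93.4 FPKM. Smooth muscle markers summed to 219 and 206 FPKM (157 to 193 FPKM in control) and skeletal muscle markers to 8.56 and 12.8 FPKM (at most 0.723 FPKM in control). Cardiomyocyte markers summed to 63771 and 336920 FPKM, and to 23165 to 27411 FPKM in control, where Myh6 and Myl2 were at 0. Pericyte sums (51.3 and 82.5 FPKM, 74.1 to 86.3 FPKM in control) and red blood cell sums (810 and 868 FPKM, 222 to 867 FPKM in control) overlapped with control or lay below it. The 2 groups also differed in age and in Myh6, which was above 0 in HF week 3 and at 0 in control. The 10 highest genes of each library held 19.8 and 37.5% of all FPKM in HF week 3 and 14.6 to 15.6% in control. The part of age, of Myh6 and of the marker sums, the atrial and mesothelial ones given above included, was not tested. Nor was that of the low number of genes in library 1.

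Against HF week 5, HF week 3 was higher in Itga1 (log2 fold change 0.74, limma adjusted p = 0.0301), Itga5 (0.65, adjusted p = 0.0262) and Itga9 (0.47, adjusted p = 0.0318), 3 of 9 members against 8.28% of all genes called higher and 21.4% in either direction. In all 3 the HF week 5 libraries lay below the HF week 3 libraries, as in 11.5% of all genes. Itgb5 also did not overlap, but was not called (0.38, adjusted p = 0.0729). Itga7 (0.10), Itga11 (-0.09), Itgav (0.17), Itgb1 (-0.12) and Itgbl1 (0.58) overlapped with HF week 5, with limma adjusted p-values of 0.235 to 0.808, and Itga8 lay below HF week 5 in both libraries. Cardiomyocyte marker sums, 63771 and 336920 FPKM, lay above HF week 5 (29746 to 62470 FPKM), where Myh6 was at 0. Skeletal muscle sums, 8.56 and 12.8 FPKM against 1.41 to 8.35 FPKM, did so too, and the other marker sums overlapped. The part of these sums and of the low number of genes in HF week 3 library 1 was not tested. With only these 2 groups in the fit no member was called, and leaving out HF week 3 library 1 or any HF week 5 library left 1 call. The adjusted p over the alternatives ranged from 0.0143 to 0.533 for Itga1, from 0.00119 to 0.588 for Itga5 and from 0.0265 to 0.533 for Itga9.

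The first recovery group, Recovery week 7, was lower than HF week 5 in Itgav (2.21 and 1.81 FPKM, log2 fold change -0.67, limma adjusted p = 0.0361) and Itgbl1 (3.01 and 1.63 FPKM, -1.12, adjusted p = 0.0412). These 2 of 9 stand against 6.75% of all genes called lower and 14.8% in either direction. No library of either gene overlapped with HF week 5, as for Itga5, Itga11 and Itgb1, 5 tested members in all against 27% of all genes. Itga5 (-0.21), Itga11 (-0.40) and Itgb1 (-0.39) were not called, nor were the overlapping Itga1 (-0.19), Itga7 (-0.32), Itga9 (-0.16) and Itgb5 (-0.07), with limma adjusted p-values of 0.214 to 0.782. Itga8, at 0.461 and 0.437 FPKM, was below HF week 5 too. Neither call was made without HF week 5 library 1 or either Recovery week 7 library, with each library centred on its median, with the 2 groups alone, with library 3 alone for HF week 5 or with no minimum level, and that of Itgbl1 was also lost without HF week 5 library 3. The adjusted p ranged from 0.0151 to 0.294 for Itgav and from 0.00998 to 0.349 for Itgbl1. Myh6, at 0 in HF week 5, took 106008 and 143712 FPKM in Recovery week 7. The sums of several marker lists lay below all of HF week 5, at 259.8 and 283 FPKM for endothelial, 662 and 379 FPKM for atrial, 3.33 and 2.63 FPKM for mesothelial and 0.857 and 0.285 FPKM for adipocyte markers. The fibroblast sums, 1289.6 and 1018 FPKM, overlapped with HF week 5. The part of these in the integrin differences was not tested.

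Against Control week 19, none of the members was called in Recovery weeks 7, 9, 11 or 13, where 0.047%, 0.0549%, 0.149% and 0.0784% of all genes were called by limma. These recovery groups are younger than Control week 19, and Myh6 was above 0 in them and at 0 in control. The part of age and of Myh6 in these comparisons was not tested. At an unadjusted p under 0.05 the numbers of members were 0, 2, 3 and 0, against 3.61%, 3.6%, 8.45% and 10.4% of all genes. Itgbl1 went from 3.01 and 1.63 FPKM in week 7 to 4.89 and 4.51 FPKM in week 9, 3.05, 4.74 and 9.43 FPKM in week 11 and 3.24 and 3.20 FPKM in week 13. It was above all control libraries in weeks 9, 11, 13 and 19 and overlapped with them in week 7. Groups without overlap in the higher direction were found for 7.33%, 5.75% and 13.1% of all genes in weeks 9, 11 and 13. Its log2 fold changes were -0.03, 0.90, 1.03, 0.41 and 0.57 in weeks 7, 9, 11, 13 and 19, with limma adjusted p-values of 1.0, 1.0, 0.179, 0.673 and 1.0.

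Itgb5 was at 41.0 and 40.8 FPKM in week 7, 39.6 and 43.8 FPKM in week 9, 35.1, 48.5 and 53.5 FPKM in week 11 and 36.0 and 35.9 FPKM in week 13. All of these but the lowest of week 11 were above the highest control library, 35.4 FPKM, so that weeks 7, 9 and 13 did not overlap with control (7.9% of all genes in week 7). The log2 fold changes were 0.28, 0.30, 0.41 and 0.09 (limma adjusted p = 1.0, 1.0, 0.205 and 0.836). Without Recovery week 11 library 1 both Itgb5 and Itgbl1 were called in week 11 (adjusted p = 0.0263 and 0.0406), and over the alternatives these p-values reached 1.0. In week 9 Itgbl1 was called with only the 2 groups in the fit (adjusted p = 0.0459, range 0.0459 to 1.0). Itga11 was at 0.581, 1.19 and 1.57 FPKM in week 11, where library 3 was the highest of all 24 for this gene, and its log2 fold change was 0.44 (limma adjusted p = 0.560). The fibroblast markers summed to 1331 and 1540.2 FPKM in Recovery week 9, 1520.2 to 2183 FPKM in week 11 and 1329.8 and 1716 FPKM in week 13, all above the highest control library (1061 FPKM). The macrophage and leukocyte markers summed to 201 to 267 FPKM in week 11 and to 255 and 298 FPKM in week 13, against 117 to 192 FPKM in the controls. The part of either in these values was not tested.

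The other members went both ways in Recovery weeks 7 to 13. In the other direction from Itgb5, Itgb1 lay below every control library in week 7, at 92.7 and 88.4 FPKM, as did 7.69% of all genes, with a log2 fold change of -0.28. Over the 4 weeks the log2 fold changes were -0.28 to 0.12 for Itgb1, -0.15 to 0.07 for Itga7, -0.30 to 0.11 for Itga5 and -0.16 to 0.09 for Itga9. They were -0.11 to 0.10 for Itga1, -0.02 to 0.23 for Itgav and -0.23 to 0.44 for Itga11, and the limma adjusted p-values of these 7 members were 0.560 to 1.0. Itga8 overlapped with control in each of these weeks.

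The proteins that integrins work with were set beside the members in HF week 5 against control. Of 25 tested genes for integrin ligands, 10 were higher and none was lower, against 11.6% of all genes called higher, with a median log2 fold change of 0.38 against 0.04 over all genes. The largest were Ctgf, a matricellular protein (2.16, from 22.5 ± 4.25 to 104 ± 33.3 FPKM, limma adjusted p = 5.33e-06), Postn, periostin (1.81, from 5.34 ± 1.82 to 21.3 ± 11.8 FPKM, adjusted p = 0.000839) and Fn1, fibronectin (1.17, from 3.77 ± 0.224 to 9.35 ± 2.58 FPKM, adjusted p = 0.000364). The fibrillin gene Fbn1 (0.75), the leukocyte adhesion molecule Vcam1 (0.71), the fibrillar collagens Col1a2 (0.68) and Col3a1 (0.65) and the elastic fibre protein Fbln5 (0.61) were higher as well, with limma adjusted p-values of 0.00461 to 0.0186. The laminin genes Lama2 (0.02) and Lamc1 (0.00), which encode subunits of the matrix bound by the Itga7 receptor, were not called, and Lama4 (0.55, adjusted p = 0.00338) was. Without HF week 5 library 1 there were 6 ligand calls, and with library 3 alone 4, all of them higher.

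Of the 18 other integrin subunits, 9 were expressed enough to be tested, and 2 of these were higher in HF week 5, against the same 11.6% of all genes. They were Itgb4, of the laminin receptor of epithelia (1.15, from 3.15 ± 1.04 to 7.79 ± 3.40 FPKM, limma adjusted p = 0.0298), and Itgb3, the platelet and vascular partner of Itgav (0.97, from 0.575 ± 0.103 to 1.84 ± 1.44 FPKM, adjusted p = 0.00799). Neither was called without HF week 5 library 1. Of the 4 tested platelet markers none was called, with a median log2 fold change of 0.93.

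Among 23 tested genes for proteins that link integrins to actin or carry their signals, 3 were higher and 3 were lower, with a median log2 fold change of 0.06 against 0.04 over all genes. These 6 of 23 are close to the 24% of all genes called in either direction. The actin crosslinkers Actn1 (0.93, limma adjusted p = 0.00265) and Flna (0.49, adjusted p = 0.0125) and the parvin Parva (0.32, adjusted p = 0.0301) were higher. Vinculin, Vcl (-0.47, adjusted p = 0.0372), the muscle parvin Parvb (-0.44, adjusted p = 0.0180) and Lims1, a partner of integrin-linked kinase (-0.33, adjusted p = 0.0393), were lower. Thus Parva and Parvb, which bind the same kinase, differed from control in opposite directions. The talin genes Tln1 (0.06) and Tln2 (-0.19), the kinase Ilk (0.13) and the focal adhesion kinase Ptk2 (0.18) were not called. Without HF week 5 library 1 there was 1 call, and with library 3 alone none.

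**Figure D5:**
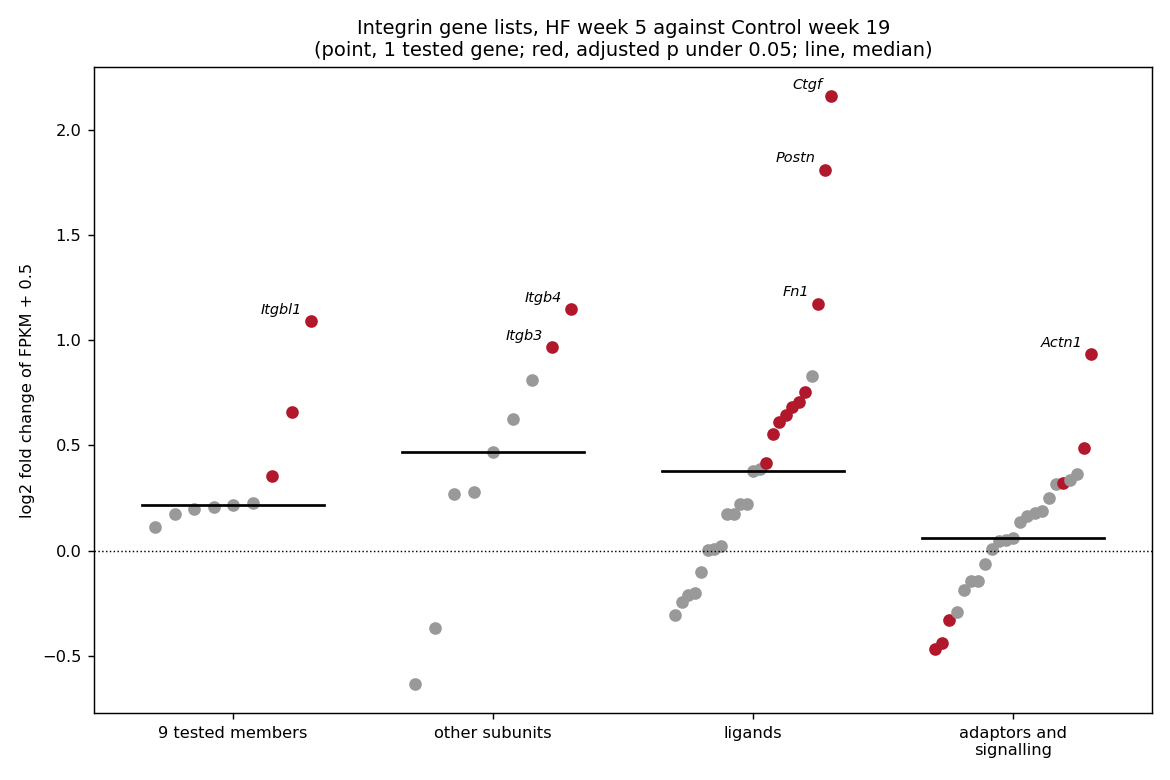
Log2 fold change of FPKM + 0.5 in HF week 5 against Control week 19 for the tested members, other integrin subunits, ligands and adaptors; each point is 1 gene, red marks an adjusted p under 0.05 and lines are medians. The medians are 0.22, 0.47, 0.38 and 0.06 in that order, and Ctgf is the highest point at 2.16.

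In Recovery week 19 against HF week 5, 8 of 25 ligands, 2 of 9 other subunits and 3 of 23 adaptors were lower, and 1 adaptor, Parvb, was higher, against 12% of all genes called lower and 24.2% in either direction. The share of adaptors called lower was near that of all genes. Ctgf was lower by a log2 fold change of -2.23, Postn by -1.89, Fn1 by -0.95 and Itgb4 by -1.79, with limma adjusted p-values of at most 0.00207 for each. Parvb was higher by 0.51 (adjusted p = 0.00775). In Recovery week 19 against control none of the tested genes of these 3 lists was called. At an unadjusted p under 0.05, 2 ligands and 1 other subunit were higher and 1 other subunit was lower, against 2.88% of all genes in either direction. In Recovery week 11 against control, 1 ligand of 25 was called, higher, against 0.149% of all genes called, and at an unadjusted p under 0.05 there were 11 higher and none lower, against 8.45% of all genes in either direction. No ligand was called in Recovery weeks 7, 9 and 13. At an unadjusted p under 0.05, 0, 3 and 4 were higher there and 5, 2 and 3 lower. The shares of all genes in either direction were 3.61%, 3.6% and 10.4%.

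For each member the genes outside the integrin lists whose log2(FPKM + 0.5) ran most alike over the 24 libraries were found by Pearson's r. These libraries come from groups that differ in treatment and tissue make-up, so that r describes the set as a whole. For Itgbl1 they included Bgn, the matrix proteoglycan biglycan (r = 0.90), and Sulf1, a heparan sulfate sulfatase (0.89). For Itgb5 they were also genes of the matrix, Col14a1 (0.88), Ltbp2 (0.87) and Cilp (0.87). For Itgav they were Prg4, lubricin (0.95), AK007719 (0.94) and Stx5a (0.93). Itga7 ran with Bnip1 (0.91), Gtpbp5 (0.85) and the muscle caveolin gene Cav3 (0.85), and Itgb1 with Tatdn1 (0.92), smoc2 (0.89) and Ublcp1 (0.88). Itga1 ran with I830012O16Rik (0.87), the interferon-induced Isg15 (0.86) and Fam111a (0.86), Itga5 with Vars (0.90), Fam179a (0.89) and Gramd1a (0.88), and Itga9 with Tmem43 (0.85), Atp9a (0.83) and Tmem119 (0.81). Of the 2 lowest members, Itga8 ran with Rad52 (0.84), Impact (0.77) and AK081964 (0.76), and Itga11 with Cnksr1 (0.71), Tnfrsf12a (0.69) and the tendon transcription factor Scx (0.67).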

How the data were processed

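Poly(A)-selected RNA of the hearts was sequenced as paired ends. The authors aligned the reads with TopHat to MGSCv37 and calculated FPKM with Cuffdiff, and these deposited values, 1 column for each library and 29955 genes by symbol, were used as they stand. The gene annotation is not given in the sources used here, and FPKM scaling cannot separate a fall of 1 gene from a rise of very abundant ones such as Myh6. Columns were matched to groups by week. Of the columns of single samples, 5 were not used, since they name Control week 5, which has 4 labelled samples. Recovery week 9 has 2 columns for 3 labelled samples, and its columns were used.

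Values were taken as log2(FPKM + 0.5), and limma 3.58.1 (R 4.3.3) fitted the genes whose mean reached 0.5 FPKM, using 8 group means, 16 residual degrees of freedom and eBayes with a trend. Tests were two-sided, p-values were adjusted over all 12759 genes (Benjamini-Hochberg), and genes were called at an adjusted p under 0.05. Shares were compared by exact permutation. On this scale the change of a low gene is understated. All members were named in every comparison, together with the called genes of largest change in the ligand, subunit and adaptor lists, the genes most like each member, and other list genes (Lama2, Lama4, Lamc1, Tln1, Tln2, Ilk and Ptk2) chosen after their values were seen. A gene among those most like the members is not reported here. The members, lists and tests were chosen with earlier results of these data known. The calculations were tested on simulated data with known changes.

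The alternatives were pseudocounts of 0.1 and 1, no minimum or a mean of at least 1 FPKM, unadjusted p-values, robust eBayes, median centring, quantile normalization, a fit of the compared groups alone and leaving out each library in turn. Fits without HF week 3 and with HF week 5 library 3 alone were added after seeing the data. Without counts no counting error can be given; the relative depth was read from the steps between low values. Tables and promoters were handled with Python 3.11.15, pandas 2.3.3, numpy 2.4.6 and scipy 1.17.1, and promoters came from RefSeq (GRCm38.p6), which held 9 of the 10 members, Itga7 not being among them.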

Additional observations from a re-analysis of the deposited data

Results flagged for a closer look

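Of 24 sets of 4 to 10 libraries examined, 2 had a library far from the others by Dixon's criterion, about as many as chance gives at 1 in 20. In Control week 19 library 5, Itgb5 was 18.7% of the FPKM of Itgb1 and Itgb5, while the next lowest library was at 24.2%. In Recovery week 19 library 5, Itga9 was at 7.66 FPKM, while the next highest library was at 6.35 FPKM.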

How the results depend on the processing

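The number of libraries, the absent counts and the unlike tissue make-up of the HF libraries limit these results. When each library was left out in turn, 0 to 2 members were called in HF week 5 against control (3 with all libraries), 1 to 3 in Recovery week 19 against HF week 5 (2), 1 to 3 in HF week 3 against HF week 5 (3), 0 to 2 in Recovery week 7 against HF week 5 (2) and 0 to 2 in Recovery week 11 against control (0). In HF week 5 against control, 0 to 3 other subunits (2), 6 to 10 ligands (10) and 1 to 6 adaptors (6) were called. With HF week 5 library 3 alone, the members called were 0 in HF week 5 against control and 0 in each other comparison with HF week 5, and the other subunits, ligands and adaptors called were 0, 4 and 0. With the compared groups alone there was 1 member in Recovery week 19 against HF week 5, 0 in HF week 3 and 0 in Recovery week 7 against HF week 5, 1 in Recovery week 9 against control and 3 adaptors. Median centring gave 1 member in Recovery week 19 and 0 in Recovery week 7 against HF week 5, where no minimum level also gave 0. Unadjusted p-values gave 2, 2 and 3 members in Recovery weeks 19, 9 and 11 against control and 4 other subunits, of which there were also 4 without HF week 3. In the other alternatives these counts stayed within 1.5 times their value, and the cause of each move was not tested.

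Some differences that did not pass the test changed sign. Among them were Itgb1 in HF week 3, from -0.46 to 0.45 against control and from -0.58 to 0.34 against HF week 5 (adjusted p = 0.0398 and 0.0204 without HF week 3 library 2), Itga1 in Recovery week 9 against control, from -0.46 to 0.24, and Itgbl1 in Recovery week 7 against control, from -0.39 to 0.33. Leaving out libraries in turn moved the difference in the Itga7 share from -3.08 to 0.95 percentage points in HF week 5 against control (0.946 without HF week 5 library 1) and that in the Itgb5 share from -0.342 to 1.05 in Recovery week 19 against HF week 5 (-0.342 without Recovery week 19 library 2 and -0.0341 without HF week 5 library 2). Over the same omissions the log2 fold change of Itga1 in HF week 5 against control ranged from -0.0070 to 0.41 (lowest without HF week 5 library 3), that of Itga11 in Recovery week 19 against HF week 5 from -0.27 to 0.040 (highest without HF week 5 library 3), that of Itga9 in Recovery week 19 against control from -0.0035 to 0.082 (-0.0017 without Control week 19 library 5, the lowest without Recovery week 19 library 5) and that of Itgav there from -0.10 to 0.043 (highest without Recovery week 19 library 2, and also above 0 without Control week 19 library 5). No paired analysis was possible because the columns carry no letters that tie them to the labelled animals. The comparison with Control week 5 was not run.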
